A study of Mus musculus with 6 samples.

Results

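The p53 target genes are 30 mouse genes regarded as transcriptional targets of the tumour suppressor p53, the transcription factor that responds to DNA damage. They were chosen by name with earlier results of these data known, so the list is not evidence of its own direction. All 30 were found among the 21878 genes of the expression table. By known role they comprised 3 genes of feedback on p53, 6 of cell cycle arrest and growth control, 5 of survival and metabolism, 4 of DNA repair and 12 of apoptosis. The samples were intestinal crypts of C57BL/6 mice, with RNA sequenced in 2 libraries per group. Control mice had received no abdominal irradiation. AIR crypts were taken on day 3 after it, and AIR + MPLA crypts on the same day from mice that were irradiated and also given MPLA, monophosphoryl lipid A, an agonist of Toll-like receptor 4. The series thus had no group given MPLA without irradiation among the libraries analysed here, and the radiation dose and the dose and time of MPLA are not stated in the labels. The labels do not say whether the libraries of a group came from different mice. The p-values therefore measure the spread between these libraries, which may be technical.

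In the crypt, ionising radiation stabilises p53, which then drives genes that halt division, genes that start apoptosis and genes that limit p53 itself. Mdm2, the ubiquitin ligase that marks p53 for degradation, is the classical feedback target. Cdkn1a, which encodes the cyclin-dependent kinase inhibitor p21, is the classical arrest target, and Bbc3 (Puma), Pmaip1 (Noxa) and Bax are the classical apoptosis targets of p53.

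p53 binds DNA as a tetramer through paired copies of a 10-base half-site, known by name as the p53 half-site consensus. Promoter windows from 250 bases before to 50 bases after an annotated start (RefSeq, GRCm38.p6) were available for 22 of the 30 genes. The half-site, which reads as the same pattern on both strands, was present in 8 of these 22, against 9.55% of all 27025 genes with a window. Directly paired half-sites with 0 to 13 bases between them occurred in Cdkn1a alone of the 22, against 0.074% of all genes. Of the 8 genes with a half-site, Polk, Aen and Ei24 were called different in no comparison below, and their matches are not shown. The matches shown are those of Cdkn1a, which was not called either, and of the called genes among the 8. These matches are written along the strand of the gene with the half-sites in capitals. They come from chr17:29090886-29090957 on the plus strand for Cdkn1a, chr10:117710915-117710964 on the minus strand for Mdm2, chr11:40755442-40755491 on the minus strand for Ccng1, chr7:45467070-45467119 on the minus strand for Bax and chr10:41887246-41887295 on the plus strand for Sesn1.
Cdkn1a: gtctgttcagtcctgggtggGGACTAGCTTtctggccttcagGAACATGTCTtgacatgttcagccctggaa
Mdm2: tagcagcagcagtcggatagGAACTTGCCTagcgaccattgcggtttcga
Ccng1: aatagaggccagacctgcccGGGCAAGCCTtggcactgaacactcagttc
Bax: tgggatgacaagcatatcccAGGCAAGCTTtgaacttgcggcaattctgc
Sesn1: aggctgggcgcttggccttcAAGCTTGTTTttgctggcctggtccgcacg
A match describes letters only, and known p53 sites outside these windows were not searched. The Sesn1 window belongs to a start inside the annotated gene.

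Levels are given as FPKM, fragments scaled to transcript length and to library size, so that levels can be compared between genes. How many reads they rest on is unknown, and no counting interval can be given. FPKM totals ran from 381669 to 492247 over the 6 libraries, and 9842 to 10179 genes reached 1 FPKM in each. For Control replicate 2 the deposited sample file and the deposited series table disagree. No value above 0 was identical between them, and the FPKM total was higher in the series table. Which of them is right is not known. The sample file was used here, so every Control mean, SD and comparison with Control rests on that choice. With the series-table values, the share of all tested genes called different in AIR against Control was 62.4% instead of 26.7%. Markers of epithelium such as Epcam and Vil1 summed to between 1850 and 2720 FPKM in every library, although 3 of the 6 (Cdh1, Vil1 and Cdx2) were called lower in AIR than in Control, whereas the 4 fibroblast and smooth muscle markers and the 3 endothelial markers were all below 1 FPKM. Of the 30 targets 7 share exon bases with another annotated gene. Apart from Bax, described below, these genes lie on the opposite strand: Ddb2 shares 23.8% of its exon bases with Acp2, and Cdkn1a, Plk3, Tigar, Rrm2b and Ei24 share 3.32% to 8.04%. Without the strand setting of the counting, their reads cannot be told apart.

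Tests were run on log2(FPKM + 1), a scale that understates the change of genes at low levels, with limma over the 10415 genes that reached 1 FPKM in at least 2 libraries. All 30 targets were among them. Of these Rrm2b and Eda2r reached 1 FPKM in the AIR libraries alone, so the filter that let them in required them to be high in AIR. A gene was called at a Benjamini-Hochberg adjusted p under 0.05 over all tested genes. In these bulk libraries, fewer cells of a type and less RNA per cell cannot be told apart.

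The targets spanned a wide range of levels. In Control crypts the highest was Perp, a membrane protein of desmosomes, at 87.9 ± 16.1 FPKM (SD, n = 2), followed by Ei24 at 65.5 ± 3.03 and Cdkn1a at 52.2 ± 23.0. The lowest was Eda2r at 0.136 ± 0.0444 FPKM. In Control 6 targets averaged below 1 FPKM, and in AIR none did. Pmaip1 moved from rank 7 of 30 in Control to rank 2 in AIR, and Phlda3 from rank 29 to rank 14.

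**Figure D1:**
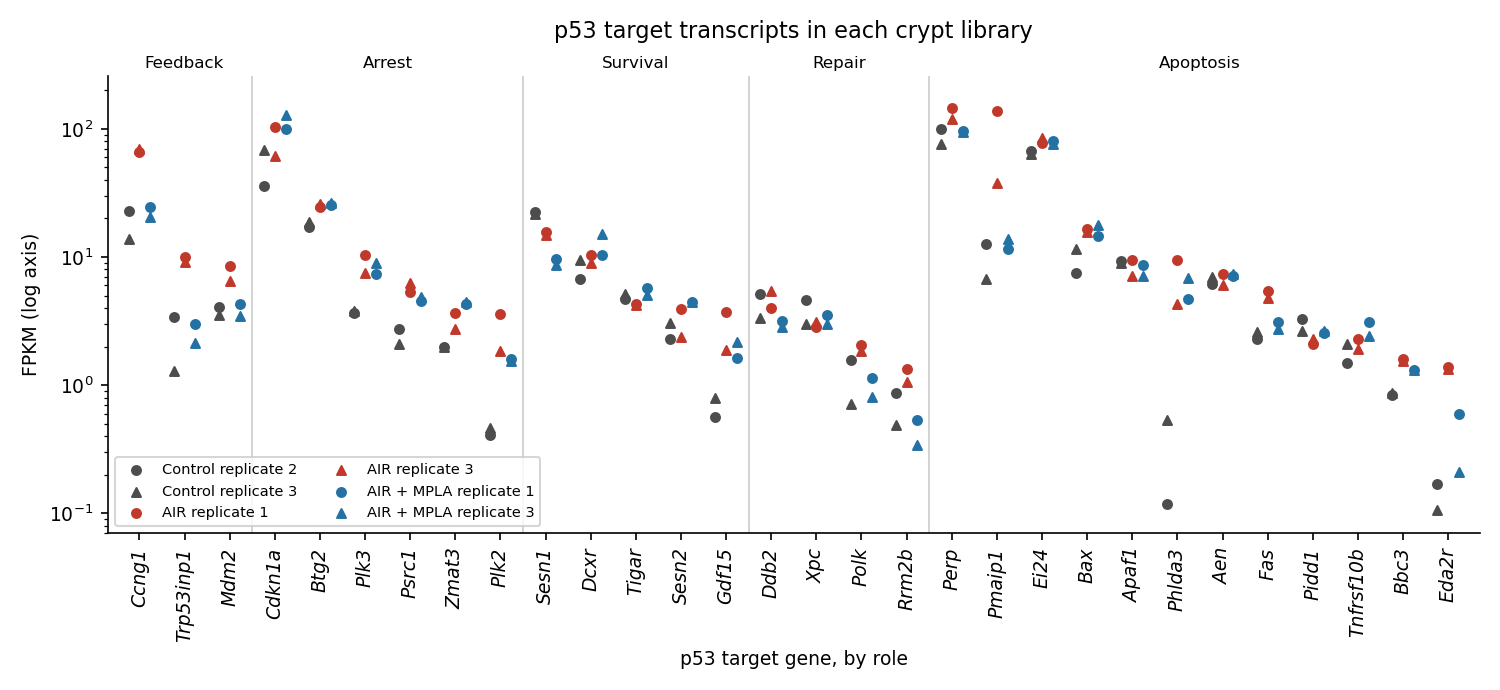
FPKM of the 30 p53 targets (log axis) in each of the 6 libraries, grouped by role and ordered within a role by mean level in AIR. Circles and triangles are the 2 libraries of a group. The AIR points stand above both Control points for Ccng1, Trp53inp1, Mdm2, Pmaip1 and Phlda3, and the AIR + MPLA points lie near Control for the first 4 of these but not for Phlda3.

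AIR was compared with Control to ask which crypt transcripts differed on day 3 after irradiation. Of the 30 targets 14 rose, 1 fell and 15 did not pass the test, with a median log2 difference of 0.49 against -0.13 over all tested genes. Rises were called for 8.05% of all tested genes, falls for 18.7%, and either for 26.7%. Without the 2 genes that passed the filter through AIR alone, 13 of 28 rose. The feedback genes rose in 3 of 3 cases, the arrest genes in 4 of 6, the apoptosis genes in 6 of 12, the survival genes in 1 of 5 with 1 fall, and the repair genes in 0 of 4. Both AIR libraries lay above both Control libraries in 19 of the 30 targets, against 22.2% of all tested genes. They lay below in 3, against 41.7%.

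AIR + MPLA was compared with AIR to ask what differed when MPLA had been given. None of the 30 targets rose and 8 fell: Mdm2, Ccng1, Trp53inp1, Sesn1, Rrm2b, Pmaip1, Fas and Eda2r. At an unadjusted p under 0.05 there were 9 of the 30, against 4720 of all 10415 tested genes in either direction. Without Rrm2b and Eda2r, which passed the filter through AIR alone, 6 of 28 fell. Of all tested genes 19.5% were called higher, 9.9% lower and 29.4% either. The median log2 difference of the targets was -0.16, against 0.15 over all tested genes. The feedback genes fell in 3 of 3 cases, the arrest genes in 0 of 6, survival in 1 of 5, repair in 1 of 4 and apoptosis in 3 of 12. Both AIR + MPLA libraries lay below both AIR libraries in 14 of the 30 targets, against 29.7% of all tested genes, and above in 6, against 47.5%. Whether the roles differ from each other was not tested. The AIR libraries enter both comparisons, so a high value in AIR raises the first difference and lowers the second, and the values are given side by side for that reason.

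AIR + MPLA was also compared with Control. Phlda3 was higher, Sesn1 was lower and 28 targets did not pass the test. An unadjusted p under 0.05 was found for 12 of the 30, against 1674 of all 10415 tested genes. Only 0.643% of all tested genes were called higher, 0.835% lower and 1.48% either. The median log2 difference was 0.31 for the targets and -0.03 over all tested genes. Both AIR + MPLA libraries lay above both Control libraries in 17 of the 30 targets, against 25.0% of all tested genes, and below in 3, against 24.5%.

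**Figure D2:**
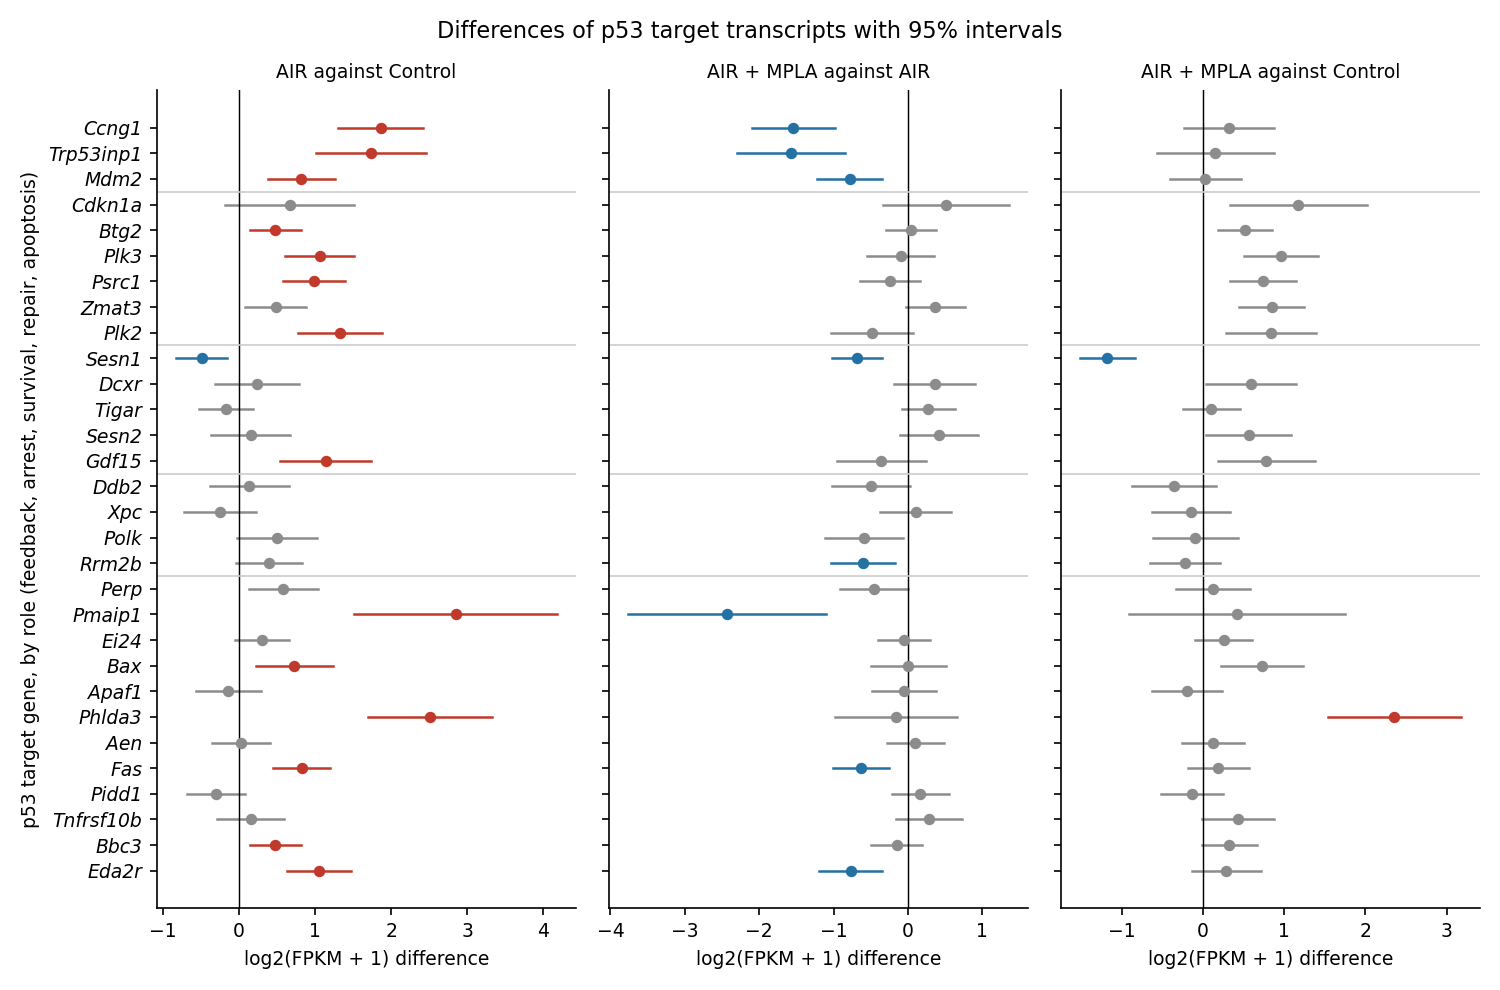
Differences of the 30 targets in log2(FPKM + 1) with 95% intervals from limma for the 3 comparisons, in the gene order of the plot of levels. Red marks called rises, blue called falls and grey genes that did not pass. The feedback genes at the top are red in the first panel and blue in the second, while the arrest genes straddle 0 in the second panel and lie right of 0 in the third.

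All 3 feedback genes were high in AIR, and in AIR + MPLA their libraries overlapped those of Control. Mdm2 (gene ID 17246, chromosome 10, 117688875 to 117710758) was at 4.06 and 3.51 FPKM in Control replicates 2 and 3, at 8.46 and 6.47 in AIR replicates 1 and 3, and at 4.31 and 3.48 in AIR + MPLA replicates 1 and 3. Both AIR libraries were above the other 4, which overlapped. Its log2 difference was 0.82 in AIR against Control (SE 0.19, limma adjusted p = 0.0228) and -0.79 in AIR + MPLA against AIR (SE 0.19, adjusted p = 0.0265).

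Ccng1 (gene ID 12450, chromosome 11, 40748552 to 40755309) encodes cyclin G1, which brings a phosphatase to Mdm2. It was at 22.7 and 13.9 FPKM in Control, 65.8 and 69.1 in AIR, and at 24.6 and 20.5 in AIR + MPLA, in the same order of replicates as for Mdm2. The AIR libraries stood apart from the other 4, a 3.69-fold rise in mean over Control (log2 difference 1.86, SE 0.24, limma adjusted p = 0.00681). In AIR + MPLA the transcript was 2.99-fold lower than in AIR (log2 difference -1.54, SE 0.24, adjusted p = 0.0153). Trp53inp1, a stress protein that promotes phosphorylation of p53, was at 3.41 and 1.29 FPKM in Control, 9.91 and 9.18 in AIR, and at 2.98 and 2.14 in AIR + MPLA. It rose 4.07-fold in AIR (log2 difference 1.73, SE 0.31, adjusted p = 0.0125) and was 3.73-fold lower with MPLA (log2 difference -1.58, SE 0.31, adjusted p = 0.0188). Between AIR + MPLA and Control none of the 3 passed, and none had an unadjusted p under 0.05. When Control replicate 2 was taken from the series table, Ccng1 (log2 difference 0.93, adjusted p = 0.0207) and Trp53inp1 (0.72, adjusted p = 0.022) were higher than Control. Without AIR replicate 1 the log2 differences from Control were 0.64 for Mdm2, 1.90 for Ccng1 and 1.68 for Trp53inp1, at adjusted p-values of 0.119, 0.058 and 0.0777. Without AIR + MPLA replicate 3 the falls with MPLA had adjusted p-values of 0.195, 0.143 and 0.147.

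Among the 6 arrest genes, both AIR libraries lay above both Control libraries in 5, against 22.2% of all tested genes. Both AIR + MPLA libraries did so in all 6, against 25.0%. None fell with MPLA by the test, and whether they differ in this from the feedback genes was not tested. With series-table values of Control replicate 2 and the GC trend removed, as described below, Plk3 (log2 difference -0.60, limma adjusted p = 0.0242) and Psrc1 (-0.61, adjusted p = 0.0104) were lower with MPLA. Plk2 was lower (adjusted p = 0.0364) and Cdkn1a higher (0.51, adjusted p = 0.0139) when the irradiated libraries were blocked in crossed pairs. That setting called 55.8% of all tested genes. Btg2, an antiproliferative cofactor, was at 17.0 and 18.8 FPKM in Control, 24.6 and 25.9 in AIR, and at 25.6 and 26.5 in AIR + MPLA. All 4 irradiated libraries exceeded both Control libraries (AIR against Control log2 difference 0.48, SE 0.14, limma adjusted p = 0.046). Plk3, a stress-responsive kinase, was at 3.64 and 3.82 FPKM in Control, 10.4 and 7.5 in AIR, and at 7.42 and 9.02 in AIR + MPLA. Its libraries with and without MPLA interleaved, all above Control, and it rose in AIR (log2 difference 1.06, SE 0.19, adjusted p = 0.0129).

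Psrc1, a microtubule-binding protein, was at 2.76 and 2.09 FPKM in Control, 5.3 and 6.26 in AIR, and at 4.56 and 4.87 in AIR + MPLA. It rose in AIR (log2 difference 0.99, SE 0.17, limma adjusted p = 0.0119), with the AIR + MPLA libraries between the other groups. Plk2, another stress-responsive kinase, was at 0.411 and 0.464 FPKM in Control, 3.58 and 1.85 in AIR, and at 1.6 and 1.55 in AIR + MPLA. It also rose in AIR, where its 2 libraries differed 1.94-fold (log2 difference 1.33, SE 0.23, adjusted p = 0.0124). Without AIR replicate 1, the adjusted p was 0.124 for Btg2, 0.0708 for Plk3, 0.0621 for Psrc1 and 0.0593 for Plk2.

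Cdkn1a (gene ID 12575, chromosome 17, 29090979 to 29100722) did not pass in any of the 3 comparisons. It was at 36.0 and 68.4 FPKM in Control, 103 and 61.4 in AIR, and at 99.6 and 129 in AIR + MPLA. The Control and AIR libraries overlapped, and both AIR + MPLA libraries lay above both Control libraries. The log2 difference of AIR + MPLA from Control was 1.18 (95% interval 0.33 to 2.02, unadjusted p = 0.0135, limma adjusted p = 0.186). Without Control replicate 3 it was 1.63 with an adjusted p of 0.0346. Zmat3, an RNA-binding protein, was the sixth arrest gene and ran from 1.98 to 2.0 FPKM in Control, 2.73 to 3.67 in AIR and 4.31 to 4.45 in AIR + MPLA, without overlap between any of the groups.

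Set against Control, all 6 arrest genes in AIR + MPLA had both libraries above both Control libraries, as did 25.0% of all tested genes. All 6 had an unadjusted limma p under 0.05, with a median log2 difference of 0.84. None passed after adjustment. Of all 10415 tested genes 1674 had an unadjusted p under 0.05 in either direction. Over the 6 arrest genes the median log2 difference in AIR + MPLA against AIR was -0.03, against -1.54 for the feedback genes.

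**Figure D3:**
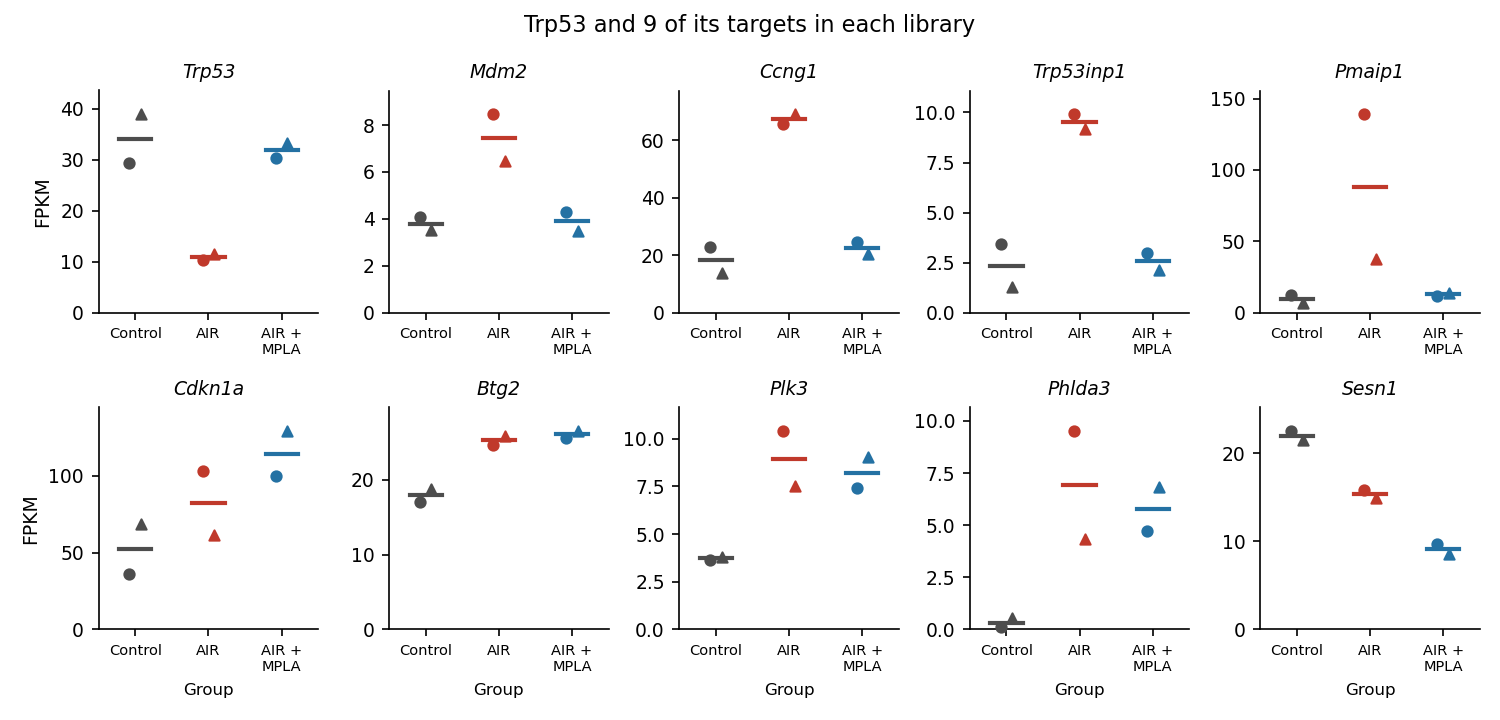
FPKM of Trp53 and 9 of its targets in Control, AIR and AIR + MPLA, each on a linear axis from 0. Circles and triangles are the 2 libraries and bars their mean. Mdm2, Ccng1, Trp53inp1 and Pmaip1 peak in AIR, Btg2, Plk3 and Phlda3 lie above Control in all 4 irradiated libraries, Cdkn1a overlaps between Control and AIR and lies above Control with MPLA, Sesn1 steps down from Control to AIR to AIR + MPLA, and Trp53 is lowest in AIR.

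Among the survival genes Sesn1 and Gdf15 moved in opposite directions in AIR. Sesn1 (gene ID 140742, chromosome 10, 41810574 to 41908436) encodes a sestrin, a stress-induced restraint on mTORC1 signalling. It was at 22.5 and 21.5 FPKM in Control, 15.8 and 14.9 in AIR, and at 9.73 and 8.61 in AIR + MPLA. The groups did not overlap and stepped down in that order. Sesn1 was the only target called in all 3 comparisons, with log2 differences of -0.49 in AIR against Control (SE 0.14, limma adjusted p = 0.0429), -0.69 in AIR + MPLA against AIR (SE 0.14, adjusted p = 0.0204) and -1.18 in AIR + MPLA against Control (SE 0.14, adjusted p = 0.0185).

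The first of these falls was at the margin. Without Control replicate 2 the adjusted p of Sesn1 was 0.0511, and leaving out any other library also took it past the threshold, up to 0.149 without AIR replicate 3. The fall against Control in AIR + MPLA had an adjusted p of 0.0539 without AIR replicate 1 and 0.182 without AIR + MPLA replicate 3, and the fall against AIR one of 0.191 without the latter. Gdf15, a secreted stress cytokine, was at 0.559 and 0.8 FPKM in Control, 3.71 and 1.89 in AIR, and at 1.62 and 2.16 in AIR + MPLA. It rose in AIR (log2 difference 1.14, SE 0.25, limma adjusted p = 0.0215; adjusted p = 0.0932 without AIR replicate 1), and the 2 irradiated groups overlapped. Sesn2, another sestrin, Tigar, which lowers glycolytic flux, and Dcxr, a carbonyl reductase, lay between 2.31 and 15.2 FPKM over all libraries and were called in no comparison.

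None of the 4 repair genes passed in AIR against Control, and none had an unadjusted p under 0.05. When Control replicate 2 was taken from the series table, Rrm2b (log2 difference 0.61, limma adjusted p = 0.00508) and Polk (0.78, adjusted p = 0.00131) were higher in AIR. That setting called 62.4% of all tested genes in either direction. With the GC trend removed as well Xpc alone of the 4 was higher (0.40, adjusted p = 0.0251), and 48.5% of all tested genes were called. Rrm2b, the p53-inducible subunit of ribonucleotide reductase, was the 1 that fell with MPLA. It was at 0.869 and 0.491 FPKM in Control, 1.34 and 1.05 in AIR, and at 0.534 and 0.343 in AIR + MPLA. Both AIR libraries were above the other 4, as the filter on low values required of the gene, since no other library reached 1 FPKM. The log2 difference of AIR + MPLA from AIR was -0.61 (SE 0.18, limma adjusted p = 0.0448), and with the GC trend removed it was 0.15. Without AIR + MPLA replicate 3 the adjusted p was 0.254. Polk, a translesion DNA polymerase, also had both AIR libraries above the other 4, at 1.56 and 0.717 FPKM in Control, 2.07 and 1.86 in AIR, and at 1.13 and 0.808 in AIR + MPLA, and did not pass. Ddb2 and Xpc, which recognise damage in nucleotide excision repair, lay between 2.82 and 5.39 FPKM in all 6 libraries and were called in no comparison.

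Of the 12 apoptosis genes, Pmaip1, Fas and Eda2r rose in AIR and were lower with MPLA, Phlda3, Bax and Bbc3 rose in AIR and did not pass with MPLA, and the other 6 were not called in any comparison. Whether these genes differ from each other was not tested, and which of them fell depended on the GC trend. With it removed, the falls of Pmaip1 (log2 difference -1.95, limma adjusted p = 0.0779), Fas (-0.35, adjusted p = 0.202) and Eda2r (-0.15, adjusted p = 0.593) did not pass and Bbc3 did (-0.66, adjusted p = 0.0364). Pmaip1, the BH3-only protein Noxa, was at 12.6 and 6.71 FPKM in Control, 139 and 37.7 in AIR, and at 11.6 and 13.8 in AIR + MPLA. Both AIR libraries exceeded the other 4, but differed 3.70-fold from each other. The log2 difference was 2.85 in AIR against Control (SE 0.56, limma adjusted p = 0.0155) and -2.43 in AIR + MPLA against AIR (SE 0.56, adjusted p = 0.0254). Leaving out either Control library ended both calls: the rise had an adjusted p of 0.0704 without Control replicate 2 and 0.155 without replicate 3, and the fall 0.078 and 0.0758. With AIR replicate 1 left out the log2 differences were 1.92 and -1.50 (adjusted p = 0.0593 and 0.0755).

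Fas, the death receptor, was at 2.31 and 2.61 FPKM in Control, 5.45 and 4.78 in AIR, and at 3.13 and 2.76 in AIR + MPLA. Its groups did not overlap, with AIR highest (log2 difference from Control 0.82, SE 0.16, limma adjusted p = 0.0142; AIR + MPLA from AIR -0.63, SE 0.16, adjusted p = 0.0295). Eda2r, the receptor of ectodysplasin A2, was at 0.168 and 0.105 FPKM in Control, 1.38 and 1.33 in AIR, and at 0.591 and 0.208 in AIR + MPLA. Only the AIR libraries reached 1 FPKM, so the filter on low values required Eda2r to be high there. It showed the same order of groups, 9.96-fold higher in AIR than in Control by the ratio of means (log2 difference 1.05, SE 0.18, adjusted p = 0.0115) and 3.40-fold lower with MPLA (log2 difference -0.77, SE 0.18, adjusted p = 0.0258). Without AIR replicate 1 the adjusted p of Fas against Control was 0.0837, and without AIR + MPLA replicate 3 the falls of Fas and Eda2r had adjusted p-values of 0.221 and 0.194.

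Phlda3 (gene ID 27280, chromosome 1, 135766085 to 135769134), a repressor of Akt signalling, had the largest log2 difference from Control of any target in AIR + MPLA. It was at 0.118 and 0.534 FPKM in Control, 9.51 and 4.32 in AIR, and at 4.73 and 6.84 in AIR + MPLA. The 2 irradiated groups overlapped and all 4 of their libraries were far above Control. Its log2 difference from Control was 2.51 in AIR (SE 0.35, limma adjusted p = 0.00784) and 2.35 in AIR + MPLA (SE 0.35, adjusted p = 0.0331). The difference of AIR + MPLA from AIR was -0.16 with a 95% interval of -0.98 to 0.66, which leaves room for a sizeable change in either direction. Without Control replicate 2 the call against Control in AIR + MPLA was lost (adjusted p = 0.181), and without AIR replicate 1 that in AIR was lost (adjusted p = 0.0565).

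Bax, a pore-forming protein of the mitochondrial membrane, was at 7.54 and 11.6 FPKM in Control, 16.4 and 15.8 in AIR, and at 14.6 and 17.9 in AIR + MPLA. All irradiated libraries lay above Control (AIR against Control log2 difference 0.72, SE 0.21, limma adjusted p = 0.0458). Its exons share 12.2% of their bases with the predicted gene Gm45808 on the same strand, so the reads of this pair may have been split. Bbc3, the BH3-only protein Puma, was at 0.837 and 0.864 FPKM in Control, 1.61 and 1.54 in AIR, and at 1.32 and 1.32 in AIR + MPLA, with no overlap of the groups (AIR against Control log2 difference 0.48, SE 0.14, adjusted p = 0.049). Both calls were at the margin: without Control replicate 2 the adjusted p was 0.0712 for Bax and 0.064 for Bbc3, and leaving out either AIR + MPLA library also ended them.

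Among the other 6, Perp ran from 76.5 to 99.3 FPKM in Control and from 119 to 145 in AIR, without passing the test. Ei24, a protein of the endoplasmic reticulum, lay between 63.4 and 84.6 FPKM in every library. Apaf1, the core of the apoptosome, was at 9.28 and 9.0 FPKM in Control, 9.43 and 7.07 in AIR, and at 8.68 and 7.13 in AIR + MPLA. Aen, an apoptosis-enhancing nuclease, Tnfrsf10b, a TRAIL receptor, and Pidd1, a scaffold that activates caspase-2, ranged from 1.5 to 7.39 FPKM.

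Of the 14 targets that rose in AIR, 9 had both AIR + MPLA libraries below both AIR libraries, and 6 of these falls passed the test. The 14 were picked for being high in AIR, which itself lowers the difference of AIR + MPLA from AIR. Of all 838 tested genes that rose in AIR 79.1% had both AIR + MPLA libraries below AIR and 57.3% were called lower. The targets' counts are thus not above that background. At the same time 10 of the 14 had both AIR + MPLA libraries above both Control libraries, against 49.5% of the 838, and 1, Phlda3, passed, against 6.21%. Within AIR, replicate 1 was the higher library in 23 of the 30 targets (76.7%), against 49.1% of all tested genes, with a median log2 difference of 0.16 between the libraries over the targets and -0.01 over all tested genes.

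Among transcripts of p53 regulators, Trp53, which encodes p53 itself, was at 29.4 and 38.9 FPKM in Control, 10.4 and 11.5 in AIR, and at 30.4 and 33.2 in AIR + MPLA. The AIR libraries lay far below the other 4, the reverse of the order seen for Mdm2 and Ccng1. Trp53 was 3.12-fold lower in AIR than in Control (log2 difference -1.54, SE 0.18, limma adjusted p = 0.00546) and 2.90-fold higher with MPLA than in AIR (log2 difference 1.46, SE 0.18, adjusted p = 0.0153). Without AIR replicate 1 the adjusted p-values were 0.0574 and 0.0713. Transcript levels say nothing of the amount or activity of the p53 protein, which were not measured here.

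Mdm4, a partner of Mdm2 that restrains p53, was at 17.9 and 5.64 FPKM in Control, 13.8 and 15.7 in AIR, and at 7.92 and 5.29 in AIR + MPLA. Its Control libraries differed widely, and no comparison passed. Without Control replicate 2 it was higher in AIR than in Control (log2 difference 1.25, limma adjusted p = 0.00505) and lower in AIR + MPLA than in AIR (-1.07, adjusted p = 0.00333). When the series-table value of 5.9 FPKM stood for Control replicate 2, the first of these was 1.22 (adjusted p = 0.000668). Ppm1d, the phosphatase Wip1 and a feedback target in its own right, was listed with the regulators and not with the 3 feedback genes. It was at 5.08 and 3.8 FPKM in Control, 3.42 and 2.93 in AIR, and at 4.45 and 3.76 in AIR + MPLA. Both AIR libraries lay below all Control and AIR + MPLA libraries, the reverse of the order of the 3 feedback genes. No comparison of Ppm1d passed.

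Of 18 tested regulators of p53, 0 rose and 5 fell in AIR against Control, against 8.05% and 18.7% of all tested genes, with a median log2 difference of -0.36 against -0.13. With series-table values of Control replicate 2, 6 rose and 5 fell, where 62.4% of all tested genes were called in either direction. Hipk2, a kinase of p53, was at 14.0 and 10.9 FPKM in Control, 5.27 and 4.98 in AIR, and at 9.98 and 9.67 in AIR + MPLA. It was lowest in AIR (log2 difference from Control -1.12, SE 0.16, limma adjusted p = 0.0087). With MPLA 2 regulators, Trp53 and Hipk2, were higher than in AIR and 1 was lower, against 19.5% and 9.9% of all tested genes. The lower one was Chek1, the checkpoint kinase, at 3.74 and 4.55 FPKM in AIR and 1.98 and 1.64 in AIR + MPLA (log2 difference -0.87, SE 0.23, adjusted p = 0.0322). Without AIR replicate 1 the adjusted p was 0.0588 for the fall of Hipk2 in AIR, 0.0761 for its higher level with MPLA and 0.0915 for Chek1. With the trend in GC content removed, neither passed with MPLA, at log2 differences of 0.40 for Hipk2 (adjusted p = 0.167) and -0.26 for Chek1 (adjusted p = 0.198). None of the 18 was called in AIR + MPLA against Control, where 3 had an unadjusted p under 0.05, against 1674 of all 10415 tested genes.

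Of 15 further p53 targets outside the 30, 2 rose and 3 fell in AIR, against the 8.05% and 18.7% of all tested genes given above. Sulf2, a sulfatase of heparan sulfate, was at 8.39 and 11.5 FPKM in Control, 19.3 and 17.1 in AIR, and at 30.2 and 33.0 in AIR + MPLA. It rose again with MPLA, to a log2 difference of 1.59 from Control (SE 0.18, limma adjusted p = 0.0176; adjusted p = 0.0539 without AIR replicate 1). Steap3, a ferrireductase, was at 5.84 and 7.12 FPKM in Control, 0.278 and 0.802 in AIR, and at 2.73 and 2.99 in AIR + MPLA. It fell in AIR (log2 difference -2.30, SE 0.21, adjusted p = 0.00453) and was higher with MPLA than in AIR (1.34, SE 0.21, adjusted p = 0.0153). This last p was 0.0713 without AIR replicate 1. With MPLA 4 of the 15 were higher than in AIR and 0 lower, against 19.5% and 9.9% of all tested genes. An unadjusted p under 0.05 was found for 9 of the 15, against 4720 of all 10415 tested genes. With the GC trend removed 1 was higher and 1 lower, where 11.4% of all tested genes were called in either direction. Fdxr, a reductase of the mitochondrion, went from 0.81 to 0.31 (limma adjusted p = 0.185).

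Cell cycle genes that p53 represses indirectly, through p21 and the DREAM complex, fell in AIR in 15 of 26 cases and rose in 0, against 18.7% and 8.05% of all tested genes, with a median log2 difference of -0.63. With the GC trend removed 12 of the 26 fell, where 23.8% of all tested genes were called in either direction. Aurkb, a mitotic kinase, was at 17.2 and 21.6 FPKM in Control, 7.74 and 7.72 in AIR, and at 14.7 and 13.7 in AIR + MPLA (AIR against Control log2 difference -1.22, SE 0.16, limma adjusted p = 0.00734). With MPLA 9 of the 26 were higher than in AIR and 1 lower, against 19.5% and 9.9% of all tested genes. With the GC trend removed 1 was higher and 0 lower, where 11.4% of all tested genes were called in either direction. Mcm5, a subunit of the replicative helicase, went from 0.91 to 0.55 (limma adjusted p = 0.0511). Bub1, a mitotic checkpoint kinase and the 1 that had fallen, went from -0.80 to -0.20 (adjusted p = 0.301). Plk1, another mitotic kinase, was at 11.9 and 11.0 FPKM in AIR and 29.9 and 32.3 in AIR + MPLA (log2 difference 1.37, SE 0.18, adjusted p = 0.0153). The adjusted p without AIR replicate 1 was 0.058 for Aurkb and 0.0713 for Plk1. None of the 26 was called in AIR + MPLA against Control, where 8 had an unadjusted p under 0.05, against 1674 of all 10415 tested genes.

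The differences between libraries followed the GC content of transcripts. Over tested genes in the fifth of lowest GC content the median log2 difference was 0.36 in AIR against Control and -0.61 in AIR + MPLA against AIR, and in the fifth of highest GC content it was -0.35 and 0.48. The 8 targets that were lower with MPLA had a median GC content of 41.5% (38.8% to 49.8%), and the other 22 had 51.9% (41.6% to 65.2%). Removing the GC trend from each library left 6 targets lower with MPLA, of which 4 were among the 8, while 11.4% of all tested genes were then called in either direction.

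All 3 feedback genes were still lower with MPLA after this correction, with log2 differences of -0.74 for Mdm2 (limma adjusted p = 0.0348), -0.91 for Ccng1 (adjusted p = 0.0266) and -0.76 for Trp53inp1 (adjusted p = 0.0391). Sesn1 also remained (-0.92, adjusted p = 0.0266). Pmaip1, Fas, Eda2r and Rrm2b did not pass, and Bbc3 and Gdf15 (-0.86, adjusted p = 0.0496) passed instead. With Control replicate 2 also taken from the series table, 11 targets were lower with MPLA, where 34.6% of all tested genes were called in either direction: the 3 feedback genes, Sesn1, Gdf15, Plk3, Psrc1, Bax, Bbc3, Fas and Perp. The median over the arrest genes became -0.39, so that the gap between the feedback and the arrest genes was smaller than without the correction. In AIR against Control the correction left all 14 rises, added Dcxr, Ei24, Perp and Zmat3, and took Sesn1 to -0.27 (limma adjusted p = 0.153). Of all tested genes 23.8% were then called in either direction in that comparison.

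**Figure D4:**
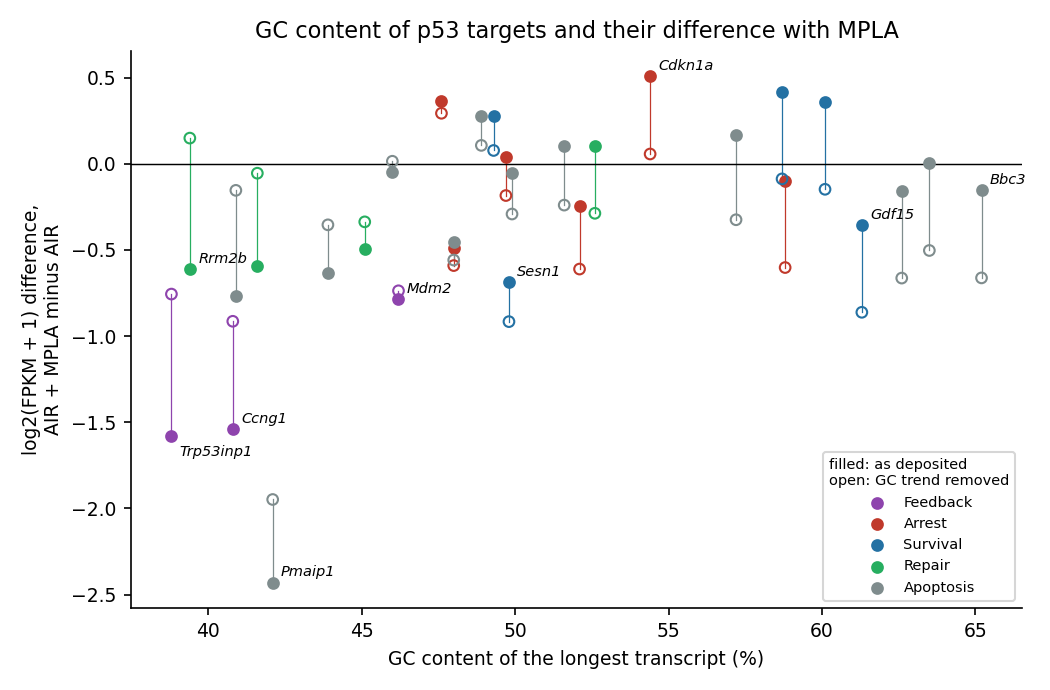
GC content of the longest transcript of each of the 30 targets (x axis, percent) against its log2(FPKM + 1) difference between AIR + MPLA and AIR (y axis). Filled points are the values as deposited and open points those after removal of the GC trend, joined by a line. Trp53inp1, Ccng1 and Mdm2 stay below 0 in both, Rrm2b crosses 0, and targets of high GC content move down.

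Markers of cell types also moved between the groups. All 5 stem cell markers of the crypt base (Lgr5, Olfm4, Ascl2, Smoc2 and Axin2) fell in AIR, their sum being 611 to 787 FPKM in Control, 101 to 265 in AIR and 231 to 340 in AIR + MPLA. With MPLA 3 of the 5 were higher than in AIR. Of the markers of epithelium 3 of 6 fell in AIR and the same 3, Cdh1, Vil1 and Cdx2, were higher with MPLA. Tuft cell markers fell in AIR in 3 of 3 tested cases, goblet cell markers in 2 of 4 and Paneth cell markers in 2 of 4, and with MPLA 2 goblet cell markers were higher than in AIR. Of 5 enterocyte markers 3 rose and 1 fell in AIR, with sums of 3050 to 3600, 6720 to 9150 and 4840 to 6380 FPKM. Summed T cell markers were at 61.0 to 103 FPKM in Control and 10.8 to 16.5 in the irradiated libraries. The 4 neutrophil markers were all at 0 in Control and summed to 2.64 and 7.94 FPKM in AIR and 0.173 and 0.971 in AIR + MPLA, with Mpo at 0 throughout. Their part in the levels of the p53 targets was not tested.

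The calls depended on single libraries. With either AIR library left out Rrm2b and Eda2r no longer reached the filter, so that 28 targets were tested. In AIR against Control all calls of the 28 were lost without AIR replicate 1, and most without AIR replicate 3. Most calls over all tested genes were lost in both fits as well. Between AIR + MPLA and AIR 0 of the 28 passed by limma without an AIR library and 0 of the 30 without an AIR + MPLA library. The same held for all tested genes in these 4 fits, which leave 1 library in a group. The loss of calls was thus not particular to the targets. Of the 8 called falls, the 6 that could be tested without an AIR library and all 8 without an AIR + MPLA library kept their direction. When Control replicate 2 was taken from the series table, 9 targets rather than 1 were higher in AIR + MPLA than in Control: Phlda3, Bax, Btg2, Ccng1, Plk2, Plk3, Psrc1, Trp53inp1 and Zmat3. The share of all tested genes called in either direction also rose, from 1.48% to 10.6%.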

How the data were processed

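RNA libraries were made with the TruSeq kit from 1 ug of total RNA of frozen crypts, per the labels' protocols. The submitters' processing notes name Cufflinks, HISAT2, HTSeq, Trimmomatic and the build GRCm38.p6; their versions, order and strand setting are not stated. FPKM values, computed by the authors, were deposited in a file per sample and a table of the series. In 5 of the 6 libraries both held the same 21878 values within 1e-06. Groups came from sample titles.

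The 10415 genes that reached 1 FPKM in 2 or more libraries were tested with limma 3.58.1 (R 4.3.3) on log2(FPKM + 1). The fit used all 6 libraries with a mean for each group, leaving 3 residual degrees of freedom, and trended, robust empirical Bayes. The Benjamini-Hochberg adjustment ran over all tested genes, with a threshold of 0.05. The fit was run on simulated data with known differences and independent noise. These data held no GC trend, so false calls from such a trend were not tested there. GC content was that of the longest GENCODE transcript, known for 99.2% of tested genes, and its trend was removed by lowess with span 0.3. Promoter windows came from RefSeq. Exon overlap was read from GENCODE annotation. Tables and figures used Python 3.11.15, pandas 2.3.3 and matplotlib 3.10.9.

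The 30 targets, their roles and the other lists were chosen with earlier results of these data known, so no list is evidence of its own direction. Values in every library are given for targets called in at least 1 comparison and for Cdkn1a, Mdm2, Bax, Bbc3, Pmaip1 and Trp53. Of the other p53 lists, the 2 called genes with the smallest p per direction and comparison qualified, of which some are given, with Trp53, Mdm4 and Ppm1d in any case. Alternatives were median-ratio and upper-quartile scaling, a pseudocount of 0.1, other filters (none, 5 FPKM), the 4 compared libraries alone, each library left out, series-table values of Control replicate 2, GC correction, and the replicate number as a block. Where leaving out a library left a single one in a group, that one was assumed to vary like the other groups.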

Additional observations from a re-analysis of the deposited data

How the results depend on the processing

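The number of reads is unknown, and 2 libraries per group limit every call. Median-ratio scaling moved the median log2 difference of all tested genes in AIR against Control from -0.13 to 0.02 and in AIR + MPLA against AIR from 0.15 to 0.01; the 8 falls with MPLA passed under it and under upper-quartile scaling.

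In AIR against Control, 14 targets were higher; the number was 9 with the filter of 5 FPKM and 0 to 12 with a library left out. The 1 lower target, Sesn1, became 0 under both scalings, without a filter, with GC correction, with series-table values and GC correction, with only the 4 libraries compared and with any library left out (0 to 0), and 2 with the series-table values. With MPLA against AIR, 8 were lower; 3 were lower without a filter, 5 with the filter of 5 FPKM and 0 to 10 with a library left out. Between AIR + MPLA and Control, 1 was higher; it was 0 without a filter and with the filter of 5 FPKM, 9 with the series-table values, with or without GC correction, 2 with GC correction alone and 0 to 6 with a library left out. The 1 lower there was 0 to 1 with a library left out. Of the called targets Bbc3, Eda2r, Fas, Gdf15, Plk2 and Rrm2b did not reach 5 FPKM in 2 libraries, so they were not tested at that filter. The share of all tested genes called also moved. With the series-table values it went from 26.7% to 62.4% in AIR against Control and from 1.48% to 10.6% in AIR + MPLA against Control. Without a filter it went from 29.4% to 7.15% in AIR + MPLA against AIR. The cause of the other shifts was not tested.

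The replicate numbers were not shown to pair the irradiated libraries: the correlation between the replicate 1 minus replicate 3 differences of AIR and AIR + MPLA was -0.33 over genes. With the replicate number as a block 9 targets were lower with MPLA, where 35.3% of all tested genes were called in either direction. With the block and GC correction together 0 targets and 0 of all tested genes passed. There 12 targets had an unadjusted p under 0.05, against 3455 of all tested genes. A crossed pairing, chosen after seeing the data, gave 3 higher and 11 lower, where 55.8% of all tested genes were called. No paired analysis was possible for comparisons with Control because its libraries share only the number 3 with the irradiated groups.

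Some log2 differences that had not passed changed sign. Between AIR + MPLA and AIR, with median-ratio scaling, upper-quartile scaling, GC correction, series-table values with GC correction, and block with GC correction, Btg2 (0.04) was at -0.12, -0.10, -0.18, -0.18 and -0.19, and Bax (0.00) at -0.15, -0.14, -0.50, -0.50 and -0.51. Under the last 3 Rrm2b, whose -0.61 had passed, was at 0.15, 0.15 and 0.16. Rrm2b in AIR against Control turned to -0.068 with GC correction and -0.20 with series-table values as well, and in AIR + MPLA against Control to 0.081 with GC correction. Between AIR + MPLA and Control, Mdm2 was at -0.024 with upper-quartile scaling, Mdm4 at 0.15 with the series-table values and 0.11 with GC correction as well, and Ppm1d at 0.020 and 0.013. With a library left out, AIR + MPLA against Control ran from -0.093 to 0.15 for Mdm2, -0.014 to 0.66 for Ccng1, -0.32 to 0.63 for Trp53inp1, -0.28 to 0.11 for Trp53, -1.34 to 0.17 for Mdm4 and -0.25 to 0.086 for Ppm1d. AIR + MPLA against AIR ran from -0.31 to 0.11 for Plk3, -0.13 to 0.14 for Bax and -0.65 to 0.33 for Phlda3, and AIR against Control from -0.27 to 1.25 for Mdm4.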
